A study of Mus musculus with 10 samples.

Results

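Formins are proteins that start and lengthen unbranched actin filaments, and this account follows the transcripts of 8 of them (Diaph1, Diaph2, Diaph3, Fmnl1, Fmnl2, Fmnl3, Daam1 and Inf2) in mouse T cell lymphomas with and without WASP. The members were chosen by gene name, and each gene was read from its probe set with a single symbol, the one of highest mean where a gene had several. Of the 8, 7 had such a probe set, 1 each, and all 7 passed the filter on dim probe sets, among 12670 genes tested. Fmnl3 was matched to no such probe set and was not analysed here.

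The samples were primary mediastinal T cell lymphomas of 10 untreated mice, 1 microarray per mouse. All 10 mice carried the NPM-ALK transgene, which encodes a fusion kinase found in anaplastic large cell lymphoma, on a C57BL/6 background, and their tumours arose at 4 to 5 months of age. The Was gene, which encodes WASP, was intact in the 5 mice labelled WT and disrupted in the 5 labelled WASP -/-, called WASP-deficient here, among which the series text counts females and males. The promoter that drives NPM-ALK is not given in the sources used here, and the RNA came from tumour tissue, so cells other than lymphoma cells contributed. Each value is the log2 of the deposited intensity, differences are WASP-deficient minus WASP-intact on that scale, and n = 5 arrays per genotype unless stated. Levels of different genes are not set against each other, because each probe set has its own response.

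A formin sits at the growing, barbed end of an actin filament and adds subunits delivered by profilin. WASP instead activates the Arp2/3 complex, which makes branched networks, so the 2 kinds of nucleator build different structures from one pool of actin. Most formins are held inactive by contact between their own ends until that contact is released, and by using up free actin they release the MRTF coactivators that turn on SRF target genes. In T cells Diaph1 and Fmnl1 are known to take part in moving the centrosome to the contact with another cell.

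Was matched the labels on every array, at 9.11 to 9.34 in the WASP-intact and 7.92 to 8.20 in the WASP-deficient lymphomas (difference -1.14, SE 0.08, limma adjusted p = 0.00088). Of 10 tested T cell markers, Cd3e, at 12.06 to 12.59, and Thy1, at 11.86 to 12.31, were among those bright on all 10 arrays. Others were lower or varied, with Cd5 at 6.57 to 7.38, Cd4 at 7.72 to 9.61 and Cd8a at 6.38 to 10.42. The level of Cd2, which encodes a T cell adhesion molecule, split the arrays. Array 1 of the WASP-deficient and arrays 4 and 5 of the WASP-intact lymphomas had 11.52, 11.18 and 11.30 and are called Cd2-high (log2 9 or more), and the other 7, at 6.10 to 6.90, Cd2-low. This split was seen in the measured values and is not a group of the study, so it is described without a test. Cd3d, a chain of the T cell receptor complex, was at 5.26 to 6.47 on the Cd2-high and at 8.96 to 10.08 on the Cd2-low arrays. Cd3g, another chain, was at 6.29 to 10.24 against 11.45 to 12.23. Zap70 was higher on the Cd2-high arrays, at 9.88 to 10.07 against 8.56 to 9.82, and the remaining T cell markers overlapped.

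Diaph2, Fmnl2 and Daam1 varied widely between the lymphomas, and they did so along the Cd2 split more than by genotype. Their SD over the 10 arrays lay at the 98.3th, 97.3th and 93.4th percentiles of all genes tested. Diaph1, Diaph3, Fmnl1 and Inf2 were steadier, with SDs at the 43.5th, 59.7th, 56.9th and 10.2th percentiles.

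**Figure D1:**
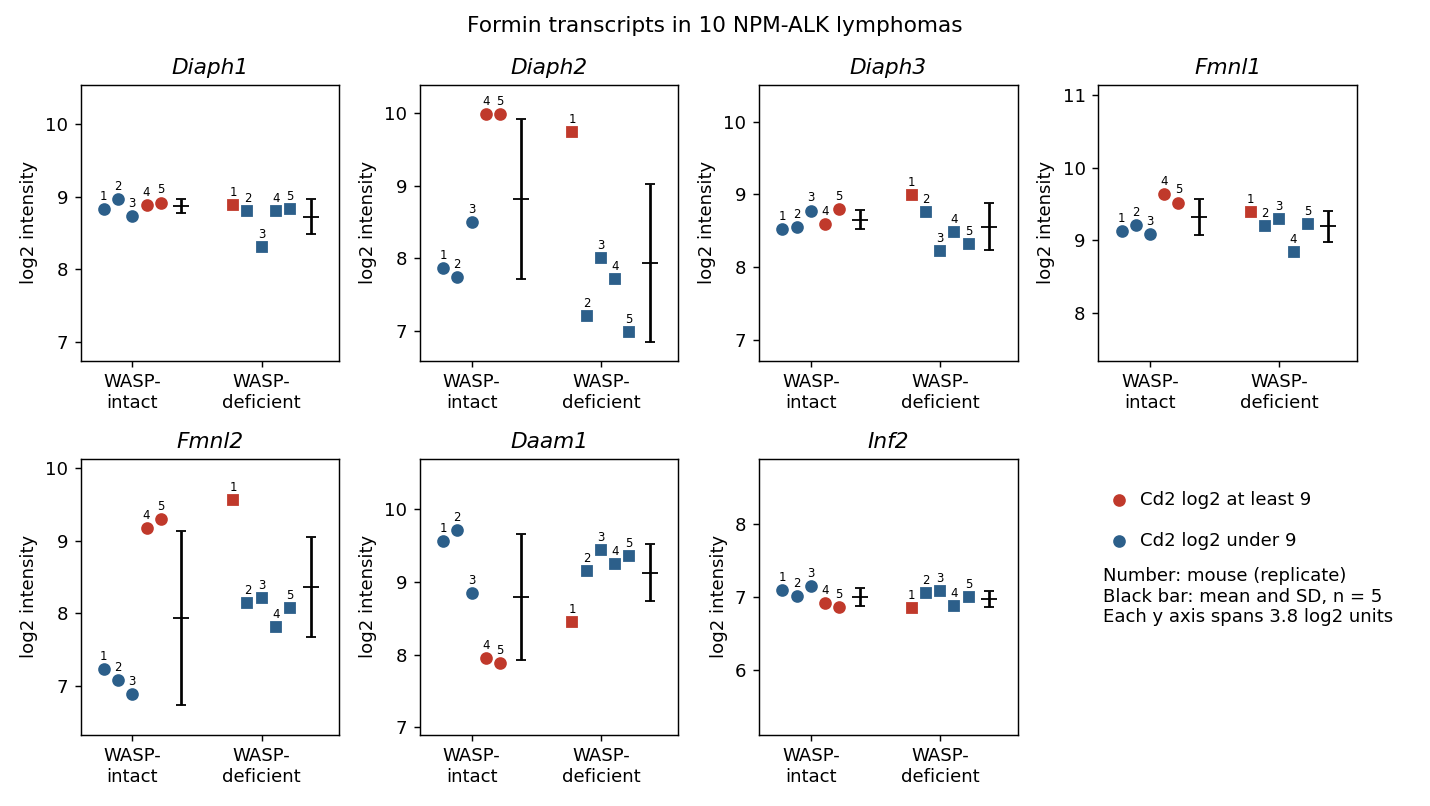
Log2 intensity (y axis) of the 7 measured formin genes in each lymphoma, by genotype (x axis), with the mouse number at each point, red for Cd2-high and blue for Cd2-low arrays, and the mean and SD of 5 arrays in black. Diaph2 and Fmnl2 stood highest and Daam1 lowest on the 3 red arrays, and the 4 blue WASP-deficient Fmnl2 values, 7.82 to 8.21, lay above the 3 blue WASP-intact ones, 6.89 to 7.24.

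Diaph2 encodes the X-linked mDia3, a diaphanous formin known for its part in attaching microtubules to kinetochores. It was at 7.87, 7.74, 8.49, 9.98 and 9.99 on WASP-intact arrays 1 to 5 and at 9.74, 7.21, 8.0, 7.72 and 6.99 on WASP-deficient arrays 1 to 5. The 3 Cd2-high arrays stood above all 7 Cd2-low arrays, with a gap of 1.24 between the nearest values. The median on Cd2-high arrays was 2.24 above that on Cd2-low arrays, a 4.72-fold difference and larger in size than in 98.6% of all genes tested.

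Fmnl2 encodes a formin that works with Cdc42 at the edge of migrating cells. It was at 7.24, 7.08, 6.89, 9.17 and 9.29 on WASP-intact arrays 1 to 5 and at 9.57, 8.14, 8.21, 7.82 and 8.07 on WASP-deficient arrays 1 to 5. All 3 Cd2-high arrays were again above all 7 Cd2-low arrays, by at least 0.97, and the medians differed by 1.48, or 2.78-fold. Over the WASP-intact arrays alone that difference was 2.15.

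Daam1 encodes a formin that binds the Wnt signalling protein Dishevelled. It went the other way, with 9.57, 9.72, 8.85, 7.95 and 7.88 on WASP-intact arrays 1 to 5 and 8.45, 9.15, 9.43, 9.25 and 9.36 on WASP-deficient arrays 1 to 5. Every Cd2-high array lay below every Cd2-low array, with a gap of 0.40, and the median was lower by 1.41 (a difference of -1.41, 2.65-fold). The Cd2-high array nearest to the others was WASP-deficient array 1.

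Fmnl1, the formin named for its abundance in leukocytes, was at 9.13, 9.21, 9.09, 9.64 and 9.52 on WASP-intact arrays 1 to 5 and at 9.39, 9.20, 9.30, 8.84 and 9.22 on WASP-deficient arrays 1 to 5. The Cd2-high arrays were above the others, but the gap was only 0.10 and the medians differed by 0.32. After a second quantile normalization its ranges overlapped. Inf2, which encodes a formin that can also sever filaments, was at 6.85 to 6.91 on Cd2-high and 6.87 to 7.16 on Cd2-low arrays, which overlapped by 0.04 as deposited and did not overlap after that second normalization. Diaph1, which encodes mDia1, was at 8.89 to 8.92 on Cd2-high arrays, inside the 8.30 to 8.97 of the others. Diaph3 encodes mDia2, known for building the contractile ring in dividing cells, and its 8.59 to 8.99 on Cd2-high arrays overlapped the 8.22 to 8.78 of the others.

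In all, 4 of 7 formins did not overlap between Cd2-high and Cd2-low arrays, 3 higher and 1 lower. Over all 12670 genes this held for 30.5%, with 14.4% higher and 16.1% lower, so the split took in a large share of all genes and the formin count was read against it. The median size of the difference was 0.32 for the 7 formins and 0.20 for all genes. Without any 1 array the count lay between 4 and 6, and Diaph2, Fmnl1, Fmnl2 and Daam1 were among them each time. The share over all genes then lay between 30.9% and 38.6%.

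**Figure D2:**
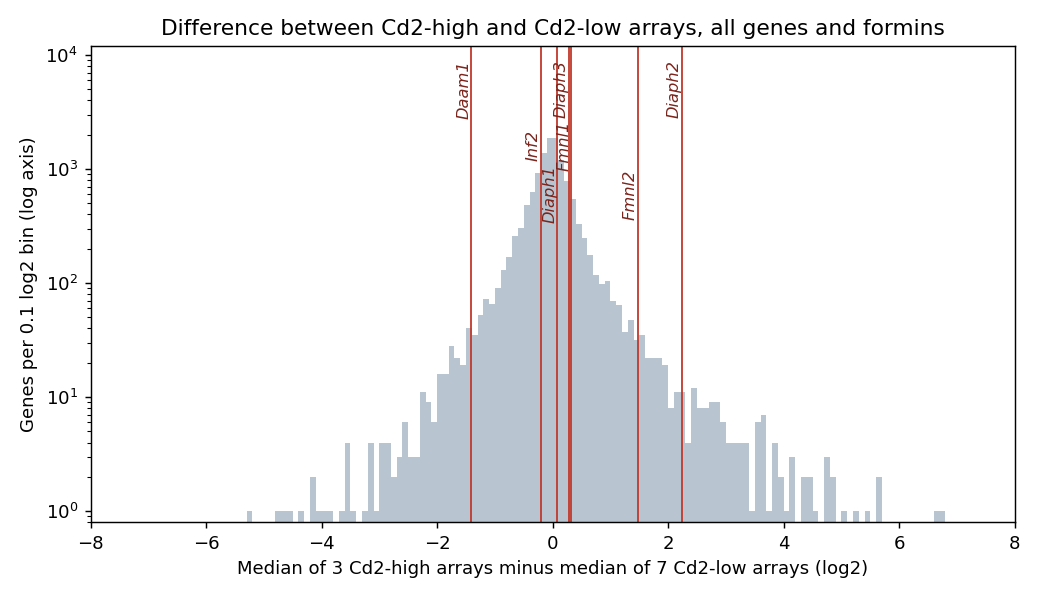
Histogram of the median on 3 Cd2-high arrays minus the median on 7 Cd2-low arrays (x axis, log2) for all 12670 genes, as genes per bin on a log axis, with red lines at the 7 formins. Diaph2 at 2.24, Fmnl2 at 1.48 and Daam1 at -1.41 stood in the tails, and the other 4 lay between -0.20 and 0.32.

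The sequences upstream of the start are shown for Diaph2, Fmnl2 and Daam1, because these differed most, and for Diaph3, because its level followed dividing-cell genes. Each is the 250 bases before a RefSeq transcript start in the GRCm38.p6 build, 5′ to 3′ on the gene's strand, and capitals mark every match to a searched motif on either strand.
Diaph2, chrX:129749492-129749741, plus strand: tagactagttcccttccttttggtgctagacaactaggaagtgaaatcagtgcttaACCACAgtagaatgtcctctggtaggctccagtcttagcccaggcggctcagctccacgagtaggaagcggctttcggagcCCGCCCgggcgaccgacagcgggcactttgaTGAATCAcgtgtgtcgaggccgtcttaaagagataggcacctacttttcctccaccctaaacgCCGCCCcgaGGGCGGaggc
Fmnl2, chr2:52857618-52857867, plus strand: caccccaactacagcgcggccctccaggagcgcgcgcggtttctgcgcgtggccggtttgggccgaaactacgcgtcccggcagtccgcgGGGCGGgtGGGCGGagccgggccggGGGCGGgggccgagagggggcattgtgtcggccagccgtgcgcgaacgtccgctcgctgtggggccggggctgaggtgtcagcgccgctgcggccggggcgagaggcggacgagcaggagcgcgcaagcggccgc
Daam1, chr12:71830818-71831067, plus strand: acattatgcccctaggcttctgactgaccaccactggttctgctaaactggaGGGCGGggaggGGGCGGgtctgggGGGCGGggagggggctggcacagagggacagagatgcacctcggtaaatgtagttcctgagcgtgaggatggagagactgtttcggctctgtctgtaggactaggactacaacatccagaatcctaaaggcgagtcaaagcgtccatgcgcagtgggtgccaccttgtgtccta
Diaph3, chr14:87141225-87141474, minus strand: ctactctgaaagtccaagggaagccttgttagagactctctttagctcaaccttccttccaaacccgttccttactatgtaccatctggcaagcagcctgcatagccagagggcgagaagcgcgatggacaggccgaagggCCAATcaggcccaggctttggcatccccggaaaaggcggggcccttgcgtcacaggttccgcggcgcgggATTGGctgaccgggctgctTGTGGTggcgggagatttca
The motifs searched were general promoter elements, which are the GC box with the letters GGGCGG, the CCAAT box and the TATA box with the letters TATAAA. Those of lymphoid factors were RUNX, spelled TGTGGT, and GATA, spelled AGATAA. Signal-dependent ones were the STAT motif TTCNNNGAA and the AP-1 motif TGANTCA, together with the CArG box bound by SRF. The CHR element of cell cycle genes was searched as TTTGAA. No match overlapped another in the windows shown.

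The windows of Diaph2, Fmnl2 and Daam1 each held 3 GC boxes, although Daam1 differed between Cd2-high and Cd2-low arrays in the opposite direction. A GC box was present in 32.7% of 32851 windows of the same length. Diaph2 also held 1 RUNX match and 1 AP-1 match, motifs found in 14.0% and 6.75% of windows. The Diaph3 window had no GC box but held 2 CCAAT boxes, one on each strand, and 1 RUNX match, against 33.8% of windows with a CCAAT box. GC content was 77.6% for Fmnl2, 58.8% for Diaph3, 58.0% for Daam1 and 56.8% for Diaph2, against a median of 52.4% over all windows. A further Daam1 start in the same table had 1 CCAAT box and no GC box. No CArG box, STAT, TATA or CHR match lay in any of these windows, and RefSeq sequences were matched for 7 of the 8 formins, Fmnl3 among them.

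By genotype, no formin passed the test over all genes. The largest differences were those of Diaph2, at 7.93 ± 1.09 against 8.82 ± 1.11 in WASP-intact lymphomas (SD, n = 5 each; -0.88, SE 0.61), of Fmnl2, at 8.36 ± 0.69 against 7.94 ± 1.19 (0.42, SE 0.55), and of Daam1, at 9.13 ± 0.40 against 8.79 ± 0.87 (0.34, SE 0.38). All 7 had a limma adjusted p of 0.999, none had an unadjusted p under 0.05, and 2 values were higher and 5 lower. Among all genes 0.00789% passed, which is Was alone, and 2.89% had an unadjusted p under 0.05. The ranges of the genotypes overlapped for all 7 formins, while they did not overlap for 0.568% of all genes.

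The precision differed between the formins. The 95% interval of the difference was -0.22 to 0.15 for Inf2, -0.40 to 0.11 for Diaph1, -0.42 to 0.23 for Diaph3 and -0.43 to 0.18 for Fmnl1. For Diaph2 it was -2.25 to 0.48, for Fmnl2 -0.79 to 1.63 and for Daam1 -0.51 to 1.18. For Diaph2 and Fmnl2 the interval reached more than 1 unit to each side of the difference.

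Within the 7 Cd2-low arrays, Fmnl2 was separated by genotype. Its 3 WASP-intact values, 7.24, 7.08 and 6.89, all lay below its 4 WASP-deficient values, 8.14, 8.21, 7.82 and 8.07. The means were 7.07 ± 0.17 (SD, n = 3) and 8.06 ± 0.17 (SD, n = 4), a difference of 0.99 (SE 0.13), or 1.98-fold. It had the fourth smallest p of 12670 genes (limma unadjusted p = 4.44e-05) and did not pass after adjustment (limma adjusted p = 0.141). In that fit 0.0158% of genes passed and 3.19% had an unadjusted p under 0.05, and 1.91% of genes were higher in WASP-deficient arrays without overlap. With all 10 arrays and the Cd2 class as a covariate the Fmnl2 difference was 0.80 (SE 0.13, limma adjusted p = 0.204), in a fit in which 0.00789% of genes passed and 4.37% had an unadjusted p under 0.05. In the fit of the 7 Cd2-low arrays alone, leaving out each in turn kept the Fmnl2 difference between 0.90 and 1.07. The limma adjusted p values then ran from 0.0758 to 0.719.

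The Cd2-high lymphomas also had the higher Fmnl2 value in the WASP-deficient one, 9.57 against 9.17 and 9.29, with a single WASP-deficient array. Xist, an RNA made in female cells, was at 11.52 to 11.90 on WASP-intact arrays 1, 2, 4 and 5. It was low on WASP-intact array 3 (4.40) and on all 5 WASP-deficient arrays (4.50 to 5.58). Xist level and genotype thus nearly coincided over the 10 arrays, and their parts in the differences by genotype cannot be told apart. The series text counts females among the WASP-deficient mice, yet no WASP-deficient array here had a high Xist level. The reason was not tested. Among the Cd2-low arrays Xist was high on 2 (11.52 and 11.71, the WASP-intact mice 1 and 2). There it was low on WASP-intact mouse 3 (4.40) and the 4 WASP-deficient mice (4.74 to 5.58). Mouse 3 had the lowest Fmnl2 of all. With the Xist level as a covariate in the Cd2-low arrays the Fmnl2 difference was 1.15 (SE 0.17, limma adjusted p = 0.659). Mouse 3 was the only WASP-intact one with low Xist, so any such fit rested on it. The parts of sex and genotype cannot be told apart by it.

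Some markers of other cell types also separated the genotypes within the Cd2-low arrays, although none passed the test there. Over all genes 4.06% did not overlap there in either direction, and 1.91% were higher without overlap. The summed epithelial level was 10.998 to 11.77 in WASP-deficient and 10.71 to 11.25 in WASP-intact Cd2-low arrays, which overlapped, and 2 of 8 markers, Epcam and Cldn4, were higher in WASP-deficient arrays without overlap. The other 6 overlapped, with differences of 1.47 for Krt5, 1.07 for Krt17, 0.97 for Krt8, 0.82 for Krt14, 0.14 for Krt18 and -0.12 for Cdh1. The median over the 8 was 0.90. Over all 10 arrays 8 of 8 were higher in WASP-deficient lymphomas (median 0.77), and 0 passed. Of the 8, 5 had a limma unadjusted p under 0.05 there, against 2.89% of all genes. Of 8 macrophage markers 2, Mrc1 and Fcgr3, were higher without overlap, and the summed level overlapped, at 12.14 to 12.95 against 12.28 to 12.74. Of 5 adipocyte markers 2, Adipoq and Fabp4, were lower without overlap, with sums of 9.758 to 10.3083 against 10.3065 to 10.52. Of 9 endothelial markers 1, Kdr, was lower and of 4 erythroid markers 1, Slc4a1, was higher without overlap. Stromal markers overlapped in 9 of 9, with sums of 12.30 to 12.67 against 12.46 to 12.91. No marker was listed at 0. Their part in the Fmnl2 difference was not tested, and in whole tumour tissue fewer cells of a type and less RNA per cell cannot be told apart.

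Diaph2 went the other way within the Cd2-low arrays, at 7.48 ± 0.46 (SD, n = 4) in WASP-deficient and 8.04 ± 0.40 (SD, n = 3) in WASP-intact lymphomas, a difference of -0.56 (SE 0.27, limma adjusted p = 0.999) with overlapping ranges. Leaving out 1 of the 7 arrays moved it between -0.33, without WASP-intact array 3, and -0.73, without WASP-deficient array 3, and with the Xist level as a covariate it was -0.92 (SE 0.33). With the Cd2 class as a covariate it was -0.47 (SE 0.21, limma unadjusted p = 0.0493, adjusted p = 0.9999). Daam1 differed by -0.08 (SE 0.20) within the Cd2-low arrays, against 0.34 over all arrays. There its sign depended on the setting, at 0.39 (SE 0.15) with the Xist level as a covariate and -0.34 (SE 0.13) without WASP-intact array 3. Diaph1, Diaph3, Fmnl1 and Inf2 lay between -0.17 and -0.004 in the Cd2-low arrays. None of these passed.

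**Figure D3:**
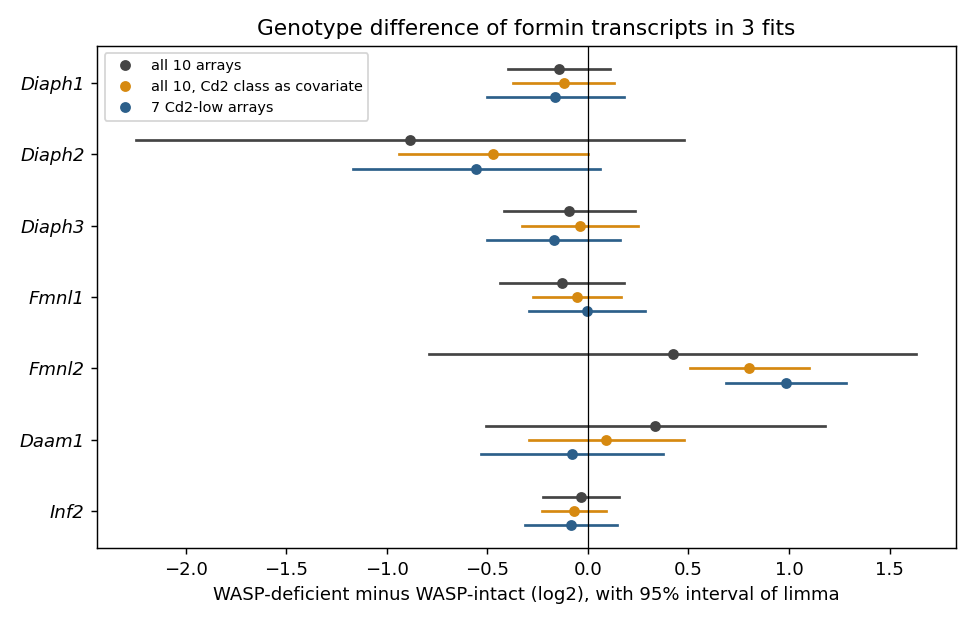
WASP-deficient minus WASP-intact difference (x axis, log2) of 7 formins with its 95% interval, in the fit of all 10 arrays (grey), with the Cd2 class as a covariate (orange) and in the 7 Cd2-low arrays (blue). The Fmnl2 interval ran from -0.79 to 1.63 over all arrays and from 0.69 to 1.28 in the Cd2-low arrays, and no formin passed over all genes in any of the 3 fits.

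Some markers of other cell types also differed along the Cd2 split. Over all genes 14.4% were higher and 16.1% lower without overlap, and the marker counts are read against this. Of 9 tested stromal markers, 5 (Col1a2, Dcn, Pdgfra, Fbln1 and Sparc) were higher on the Cd2-high arrays without overlap. Col1a2 was so only narrowly, at 8.691 or more against 8.690 at most. Pdgfrb differed most, at a median difference of 1.64, and overlapped. The summed stromal level was 13.20 to 13.61 against 12.30 to 12.91. Of 8 epithelial markers 1, the keratin gene Krt18, was lower without overlap, at 7.07 to 8.54 against 9.48 to 10.18, and the other 7 overlapped, with Epcam at a median difference of 0.16. Of 8 macrophage markers 1, the receptor gene Adgre1, was higher without overlap, at 8.41 to 8.67 against 7.11 to 8.28. The other 7 overlapped, Fcgr3 among them at a median difference of -0.17, and the median over the 8 was -0.05. Of 9 endothelial markers 1, Egfl7, was lower without overlap, at 8.04 to 8.35 against 8.57 to 8.95. Pecam1 differed most of the 9, at a median difference of 0.66, and overlapped, and the median over the 9 was 0.08. The summed level overlapped, at 11.44 to 11.56 on Cd2-high and 11.17 to 11.70 on Cd2-low arrays. Adipocyte markers overlapped in 5 of 5, with the largest median difference, 1.07, for Adipoq. Of 6 muscle markers 1, Acta1, and of 4 erythroid markers 1, Klf1, were higher without overlap. The muscle marker that differed most was Actc1, at 0.44, and it overlapped. So did Cd79b, the 1 tested B cell marker, at 0.26. Muscle markers were high on 1 Cd2-high array, WASP-intact 4, where the sum was 12.49 against 9.61 at most on the Cd2-low arrays. Their part in the Diaph2, Fmnl2 and Daam1 differences was not tested. Without that array the median differences lay at 2.12 for Diaph2, 1.61 for Fmnl2 and -1.19 for Daam1.

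The genes whose level over the 10 arrays was most like that of each formin were listed by Pearson's r, as a description only, since the arrays share the Cd2 split. For Diaph3 these were Cep128 (r = 0.981), Ndc80 (0.976), a kinetochore component, and Tyms (0.970), which makes thymidylate for DNA synthesis, and r stayed at 0.981, 0.984 and 0.977 in the 7 Cd2-low arrays. For Fmnl2 they were Efna1 (0.974), an ephrin, Kpna4 (0.969), an importin, and Ank (0.949), with 0.946, 0.883 and 0.885 in the Cd2-low arrays. For Diaph2 they were Zfp781 (0.986), Acvr2a (0.971), an activin receptor, and Shtn1 (0.969), with 0.912, 0.900 and 0.738 in the Cd2-low arrays. For Daam1 they were 6430548M08Rik (0.965), Lpcat3 (0.961) and the calcium channel gene Cacna1c (0.961), with 0.870, 0.744 and 0.668.

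Likeness to Diaph1 was highest for Tbce (0.979), a tubulin folding cofactor, Zfp952 (0.977) and Zup1 (0.971). Those for Fmnl1 were A530088E08Rik (0.968), the histone acetyltransferase gene Kat6a (0.967) and 4930581F22Rik (0.965), and those for Inf2 were Spef1 (0.955), Vars (0.954) and Tradd (0.943). Diaph1 owed its spread to WASP-deficient array 3, at 8.30 against 8.73 to 8.97 on the other 9.

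Other formins added little. Fhod1 alone of 7 passed the filter, at 7.87 to 7.97 in WASP-intact and 7.16 to 8.24 in WASP-deficient lymphomas (difference -0.07, SE 0.18). Daam2, Fmn1, Fmn2, Fhod3, Fhdc1 and Grid2ip stayed between 4.49 and 6.27 on all arrays, under the filter of 6.35.

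Genes for profilin and for proteins that cap or lengthen barbed ends showed 0 of 8 past the test by genotype (median 0.01, against -0.004 over all genes). The Ena/VASP genes Enah and Evl differed by 1.12 (SE 0.59) and 0.12 (SE 0.15). Enah stood at 9.72 and 9.82 on WASP-deficient arrays 4 and 5 and at 6.63 to 7.33 on the other 8. On Cd2-high arrays 3 of the 8, Capzb, Evl and Enah, were lower without overlap, against 16.1% of all genes. The profilin gene Pfn2, whose mean was under the filter, was at 6.96 to 8.28 on Cd2-high and 4.85 to 6.58 on Cd2-low arrays.

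Among 12 tested genes of formin binding partners 0 passed by genotype (median 0.10). Spire1, which encodes a nucleator that works with formins, differed by 0.93 (SE 0.43), and the kinase gene Src by 0.26 (SE 0.10). Within the Cd2-low arrays 0 passed as well. There 2 of the 12, Spire1 (1.04, SE 0.24) and Src (0.35, SE 0.12), were higher in WASP-deficient arrays without overlap, against 1.91% of all genes. Mapre1 (-0.17, SE 0.10) was lower there without overlap. Against 16.1% of all genes, 4 of the 12 were lower on the Cd2-high arrays without overlap. These were Baiap2, which encodes the membrane-bending IRSp53, at 7.77 to 8.06 against 9.19 to 9.62, Spire1, at 6.31 to 6.67 against 7.15 to 8.86, the Dishevelled gene Dvl1, at 8.38 to 8.50 against 8.98 to 9.20, and Mapre1, a microtubule end binder, at 10.23 to 10.27 against 10.34 to 10.74. The other Dishevelled genes overlapped, with median differences of -0.19 for Dvl2 and 0.05 for Dvl3.

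SRF, its coactivators and its targets were also read, because formins feed into them. Of 4 tested factor genes 0 passed by genotype, with Srf at -0.04 (SE 0.09) and Elk4 at -0.05 (SE 0.11). On Cd2-high arrays 2 of the 4, Mrtfa and Mrtfb, were lower without overlap, against 16.1% of all genes. Of 16 tested SRF targets 0 passed (median -0.05). Within the Cd2-low arrays 0 passed as well (median 0.22, against -0.02 over all genes). There 3 of the 16, Acta2, Fhl1 and Ccn2, were higher in WASP-deficient arrays without overlap, against 1.91% of all genes. The summed levels were apart only narrowly, at 14.5008 to 14.55 against 14.41 to 14.4935. Over all 10 arrays the smooth muscle actin gene Acta2 differed by 0.83 (SE 0.23, limma adjusted p = 0.999) and Myl9, a myosin light chain gene, by 0.42 (SE 0.16). On the Cd2-high arrays Actb, Flna and Fhl2 were higher and Zyx lower without overlap, against 14.4% and 16.1% of all genes. The median difference of the 16 was 0.41, against -0.02 over all genes.

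Cytokinesis and mitosis genes, the setting in which Diaph3 is known to act, showed 0 of 11 past the test by genotype, with 10 lower and 1 higher value (median -0.05). Mki67 differed by -0.20 (SE 0.13) and Top2a by -0.18 (SE 0.13), beside -0.09 (SE 0.15) for Diaph3. None of the 11 separated Cd2-high from Cd2-low arrays, and neither did Diaph3.

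**Figure D4:**
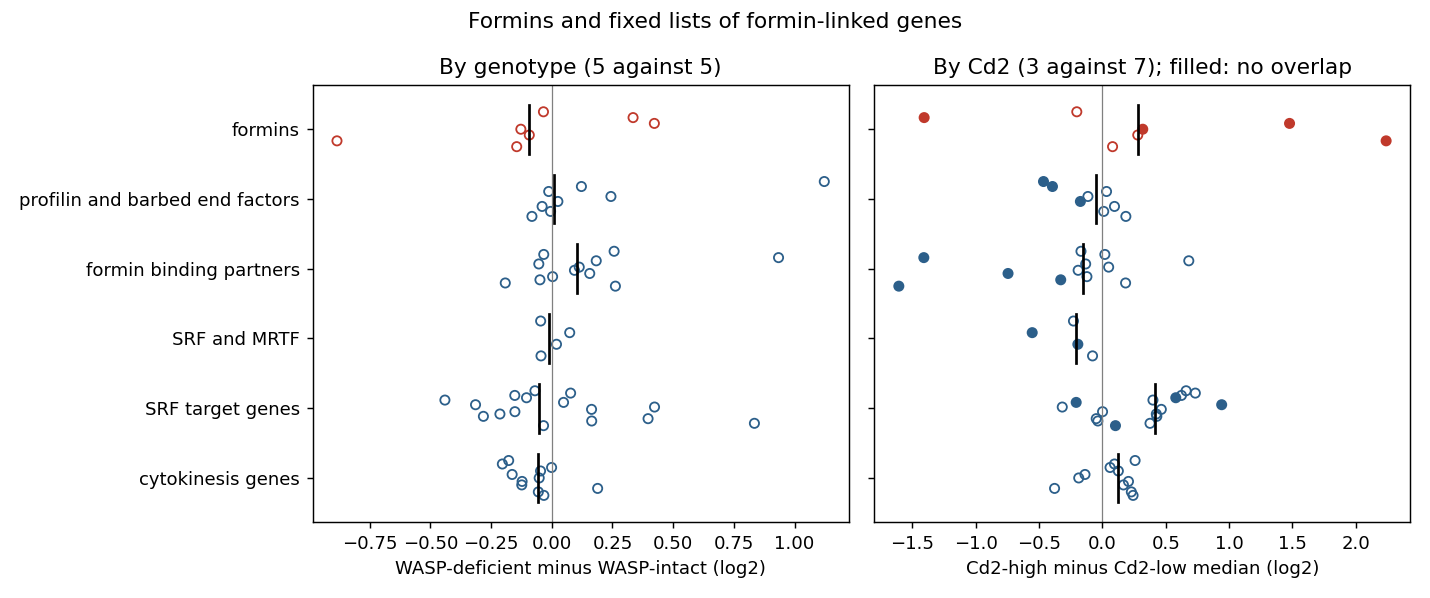
Log2 difference of each tested gene in 6 lists (rows), by genotype on the left and as Cd2-high minus Cd2-low medians on the right, with black bars at the list medians and filled points where the Cd2-high and Cd2-low arrays did not overlap. The formin median was -0.09 by genotype and 0.28 by Cd2, and no gene of these lists passed the test of genotype.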

How the data were processed

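The authors deposited linear probe set intensities made with RMA, as the submitters' processing notes state. The sources used here do not give the software version, annotation or genome build behind them. RMA normalizes quantiles, so array-wide differences in RNA amount can no longer be read. Array medians lay between 116.7 and 122.7, 0 pairs of columns were identical, and 5 arrays per genotype limit the precision. Labels call the replicates biological, so p-values measure spread between mice.

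The log2 of each value was taken. Probe sets were named through the platform annotation: 21640 of 34760 had 1 symbol, 1321 several and 11799 none here. Gene IDs of 21553 matched RefSeq, and 0 symbols changed. Probe sets with a mean under the 40th percentile (log2 6.35) were left out, and the probe set of highest mean was kept per gene. The test of genotype was limma's (version 3.58.1 in R 4.3.3, lmFit followed by eBayes), with Benjamini-Hochberg adjustment over 12670 genes and a threshold of 0.05. The fit was tested on simulated data. The simulation had no Cd2 split and capped the SD of each gene below those of Diaph2, Fmnl2 and Daam1. It therefore does not cover these genes. A summed level is the log2 of the sum of the linear intensities of a list's tested genes. Figures used matplotlib 3.10.9 in Python 3.11.15.

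The members, gene lists and alternatives were chosen with earlier results of these data known. Named genes were the members, Was, Cd2, the 2 genes of smallest p in each pathway list, the 3 genes most like each member, and, per cell type list, the marker that differed most with Cd2. Other genes were named after their values were seen, among them all genes listed as not overlapping, Cd3e, Cd3d, Thy1, Xist, Pfn2 and the formins under the filter. So were Cd4, Cd5, Cd8a and the epithelial markers other than Krt18. The result of 1 further pathway list is not reported here.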

Additional observations from a re-analysis of the deposited data

Results flagged for a closer look

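Among 14 sets of 5 values, 7 formins in each genotype, 3 had 1 array far from the other 4. The threshold used flags about 1 in 20 independent sets by chance. These 14 sets share the same 10 arrays, so their count is not read against that rate. The gap to the nearest array is given as a share of the whole range. For Diaph1 in WASP-deficient lymphomas this share was 0.856, with array 3 at 8.30 and the next at 8.80. For Fmnl2 it was 0.777, with WASP-deficient array 1 at 9.57 and the next at 8.21. For Daam1 it was 0.715, with the same array lowest, at 8.45, and the next at 9.15. WASP-deficient array 1 was the single Cd2-high array of its genotype. Fmnl2 and Daam1 did not overlap between Cd2-high and Cd2-low arrays, so their flags are not separate from that split.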

How the results depend on the processing

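No formin passed the test of genotype under any of 30 alternatives. Was alone passed among all genes in the reported fit. The count of genes was 2 without the Cd2-high arrays, where Ybx3 joined Was, and 2 there without the filter on dim probe sets. It was 0 with the Xist level as a covariate (187 genes at an unadjusted limma p under 0.05) and 0 with it in the Cd2-low arrays (361 genes). Leaving out 1 array gave 1 to 4 genes, with 4 without WASP-intact array 3, where Xist, Kdm5d and Uty joined, and 2 without WASP-deficient array 1. Within the Cd2-low arrays, leaving out 1 gave 0 to 5. These fits, and those of the Cd2-low arrays with the Xist covariate or no filter, were chosen after seeing the data. Without mouse 3 of the WASP-intact group the count was 5 (Kdm5d, Stxbp5, Uty, Xist and Ybx3), with Was not among them. In that fit Xist level and genotype coincided fully. The count was 0 without mouse 1 or mouse 2, so Was did not pass there either. Without mouse 2, 3, 4 or 5 of the WASP-deficient group it was 4, 0, 3 and 0. Correlations of same-numbered arrays ran from -0.71 to 0.37. The Cd2 split enters these correlations, so they cannot show whether the replicate numbers pair the arrays. With the replicate number as a block 0 genes passed (248 at an unadjusted limma p under 0.05), Was at -1.14 among those that did not. The number of formins whose genotypes did not overlap went from 0 to 1, Fmnl2, without the Cd2-high arrays. The share over all genes rose as well in that step, from 0.568% to 4.06%.

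Some differences changed sign. Daam1, at 0.34 in the reported fit, was -0.23 with array weights and -0.079 in the Cd2-low arrays with and without the filter, and 0.39 there with the Xist covariate. Over all fits that left out 1 array, of the 10 or of the 7, it lay between -0.34 and 0.57. Fmnl1, at -0.13, was 0.096 with the Xist covariate and 0.063 with it in the Cd2-low arrays, and lay between -0.18 and 0.095 when 1 array was left out. Diaph3 was 0.013 with array weights, and Inf2 lay between -0.12 and 0.0038 when 1 array was left out. The cause of these changes was not tested. Fmnl2 kept its sign in all fits, between 0.12 (without WASP-deficient array 1) and 1.34 (Xist covariate). Inf2 fell under the filter at the 60th percentile. Every formin had 1 probe set, so averaging probe sets could not change its values.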
